A study of Mus musculus with 11 samples.

Results

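Retinal astrocytes and the signals that draw blood vessels into the retina were followed through 7 genes. They are Pax2, Gfap, Aldh1l1 and S100b, which mark astrocytes, Pdgfra and its ligand gene Pdgfa, which tie astrocytes to neurons, and Vegfa, which codes for the vessel growth factor VEGF-A. The genes were taken by name, and their Ensembl identifiers picked out 7 of the 47069 genes in the count files. All 7 had enough counts to be tested. RNA-seq was done on retinas of C57BL/6 mice, in 4 groups: wild type at postnatal day 4 (P4, n = 2 libraries), Brn3b-Kir2.1 at P4 (n = 3), wild type at P8 (n = 3) and Brn3b-Kir2.1 at P8 (n = 3). Brn3b-Kir2.1 mice carry a transgene that joins the human potassium channel Kir2.1, an inward rectifier, to the fluorescent protein eYFP. A CAG promoter drives it once a floxed STOP cassette is removed, here by Brn3b-cre, which acts in retinal ganglion cells. The group labelled wild type is named as Brn3b-cre mice in the extraction protocol, so the controls may carry the Cre allele too. The later age is P8 in the age field and P11 in the protocol, and the field value is used here. The source field names retinal ganglion cells, but the protocol describes dissociated whole retina with no sorting. The labels do not say whether libraries came from separate animals, so a p-value measures only the spread between these samples, which may be technical.

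Retinal astrocytes are not born in the retina. They enter it from the optic nerve head around birth and spread over the inner surface as precursors that express Pax2 and the PDGF receptor alpha, and later accumulate GFAP filaments. Ganglion cells secrete PDGF-A, on which the spreading astrocytes depend, and astrocytes and other retinal cells release VEGF-A where oxygen is low, so that vessels grow over the astrocyte network. In the mouse this growth takes place over the days after birth.

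Gene counts per library ranged from 9362215 to 12478838, and levels are given as CPM, counts scaled to library size by the TMM method. Between 22609 and 24591 genes had a count in 10 libraries, and 31325 in Kir2.1 P8 replicate 2. That library also had 69.4% of its uniquely aligned records in no gene (57.0% to 62.4% in the others) and a summed level of 8 pigment epithelium genes of 20.8 CPM (0.550 to 3.76 in the others). Leaving it out called none of the 7 genes in any comparison. Kir2.1 P4 replicate 2 had a summed level of 10 ganglion cell markers of 302.3 CPM, against 729.1 to 1517 in the other P4 libraries. It had the lowest Gfap (1.31 CPM) and S100b (0.998 CPM) of all 11 libraries and the highest Aldh1l1 (3.76 CPM). Its Pax2 (4.68 CPM) and Pdgfa (4.30 CPM) were the lowest of the P4 libraries. Without it, too, none of the 7 genes was called in any comparison. A pair of wild-type libraries stood apart from their groups. In wild-type P4 replicate 2 the summed level of 8 genes of dividing cells was 892 CPM, against 2033 to 2541 in the other P4 libraries. In wild-type P8 replicate 1 the summed level of 8 rod genes was 587.5 CPM, against 2384 to 5561 in the other P8 libraries, and 10 fibroblast genes summed to 97.8 CPM, against 15.5 to 36.5 in the other 10 libraries. Leaving out both libraries called none of the 7 genes in any comparison.

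The 7 genes differed widely in level. Vegfa was the highest, at 61.2 CPM per kilobase of exon (mean over 11 libraries), and it was above every other of the 7 in 11 of 11 libraries. Pdgfra followed at 4.70 CPM per kilobase, above Pdgfa, the next gene by mean, in 11 of 11 libraries. In Kir2.1 P8 replicate 3, Gfap (3.45) was above Pdgfra (3.29). Pdgfa (2.55) and Gfap (2.40) could not be ordered, with Pdgfa above Gfap in 6 of 11 libraries. S100b stood at 1.65, Pax2 at 1.004 and Aldh1l1 at 0.535 CPM per kilobase, and each of these neighbours in the order kept its place in 9 of 11 libraries. The steadiness of the genes differed as well. Vegfa varied 1.60-fold between its lowest and highest library, with a coefficient of variation of 14.6%, below which lay 21.3% of all genes tested. Gfap varied 11.9-fold, and 68.1% of all genes tested had a lower coefficient of variation.

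Related genes of the same pathways placed these levels. Hif1a, which codes for an oxygen-regulated transcription factor, was higher than Vegfa at 101 CPM per kilobase. Kdr, the main VEGF-A signalling receptor gene and one also known in retinal progenitors and neurons, stood at 44.2. Slc2a1, the glucose transporter of vessels and glia, stood at 38.7. Epas1, which codes for another hypoxia-inducible factor, reached 12.3, and Nr2e1, a nuclear receptor of retinal progenitors and immature astrocytes, 9.19. The VEGF-A coreceptor gene Nrp1 reached 6.28 and the receptor gene Flt1 2.05 CPM per kilobase. Pdgfb (1.09) and Pdgfrb (1.03), the ligand and receptor that recruit pericytes, were lower than Pdgfa and Pdgfra by mean level.

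**Figure D1:**
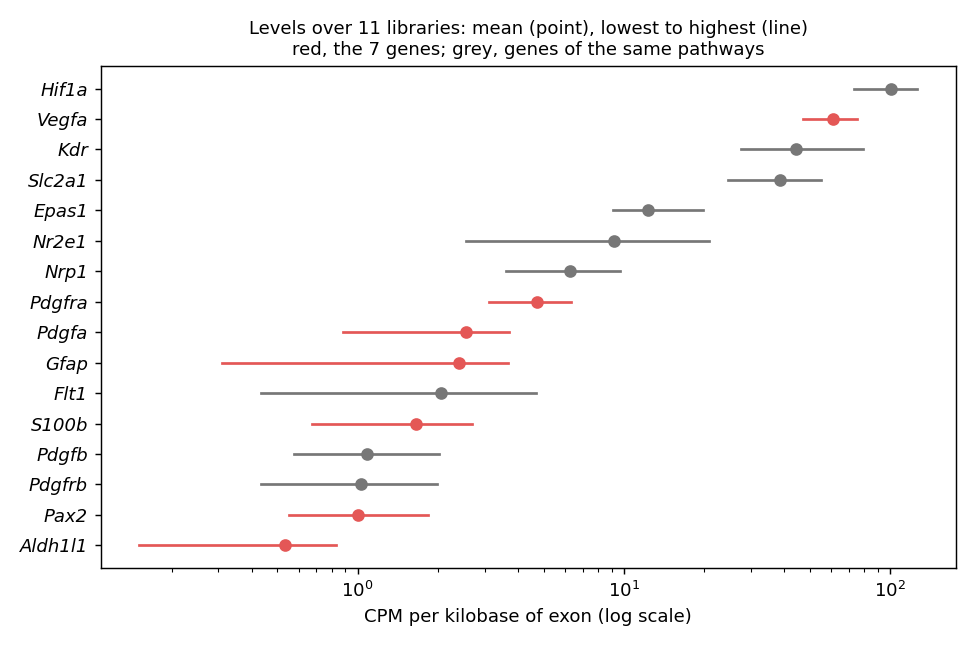
Levels of the 7 genes (red) and of 9 related genes (grey) in CPM per kilobase of exon, on a log axis; points are means over 11 libraries and lines run from the lowest to the highest library. Vegfa and Hif1a lie at the top of the scale and the astrocyte markers Pax2 and Aldh1l1 at the bottom.

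Pax2 (ENSMUSG00000004231; GRCm38 chromosome 19, 44756045 to 44837871, plus strand) codes for a paired-box transcription factor of the optic stalk and of astrocyte precursors. At P4 its level was 5.47 and 6.94 CPM in wild type and 9.95, 4.68 and 7.44 CPM in Kir2.1. At P8 it was 4.03, 2.98 and 6.996 CPM in wild type and 3.89, 4.18 and 3.21 CPM in Kir2.1. The wild-type P8 libraries reached up into the P4 range, while all 3 Kir2.1 P8 libraries lay below all 3 Kir2.1 P4 libraries. The group means were 6.20 ± 1.04 (SD, n = 2), 7.36 ± 2.64 (n = 3), 4.67 ± 2.08 (n = 3) and 3.76 ± 0.494 CPM (n = 3) in the same order of groups.

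Gfap (ENSMUSG00000020932; chromosome 11, 102887336 to 102900912, minus strand) codes for the intermediate filament of astrocytes, which Mueller glia also make when stressed. It was measured at 7.18 and 8.80 CPM in wild-type P4 and at 11.5, 1.31 and 8.14 CPM in Kir2.1 P4. In wild-type P8 it was 12.9, 12.3 and 15.5 CPM, and in Kir2.1 P8 13.4, 5.43 and 14.6 CPM. All wild-type P8 libraries were above all wild-type P4 libraries. Kir2.1 P4 replicate 2, with 17 counts, and Kir2.1 P8 replicate 2 were low within their groups. Group means were 7.99 ± 1.14 (SD, n = 2), 6.99 ± 5.21 (n = 3), 13.6 ± 1.71 (n = 3) and 11.1 ± 4.97 CPM (n = 3).

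Aldh1l1 and S100b were near the limit of these libraries, with 8 to 49 and 13 to 47 counts per library. Aldh1l1 (ENSMUSG00000030088; chromosome 6, 90486427 to 90600203, plus strand) codes for a folate enzyme used as a pan-astrocyte marker. It was at 0.684 and 2.03 CPM in wild-type P4, 2.70, 3.76 and 1.49 in Kir2.1 P4, 1.74, 1.79 and 2.20 in wild-type P8 and 3.73, 3.44 and 3.04 in Kir2.1 P8. At P8 the genotypes did not overlap, Kir2.1 being higher (3.40 ± 0.348 against 1.91 ± 0.251 CPM, SD, n = 3 each), and at P4 they overlapped (2.65 ± 1.14, n = 3, against 1.36 ± 0.952, n = 2). S100b (ENSMUSG00000033208; chromosome 10, 76253853 to 76261159, plus strand), a calcium-binding protein gene of glia, was at 1.63 and 3.98 CPM in wild-type P4, 2.42, 0.998 and 2.19 in Kir2.1 P4, 3.94, 1.53 and 3.42 in wild-type P8 and 2.73, 1.57 and 2.59 in Kir2.1 P8. Its 4 groups all overlapped.

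Pdgfra (ENSMUSG00000029231; chromosome 5, 75152292 to 75198215, plus strand) codes for the receptor through which astrocytes receive PDGF-A. Its level was 45.1 and 48.5 CPM in wild-type P4, 63.5, 45.8 and 52.7 in Kir2.1 P4, 49.2, 38.5 and 52.9 in wild-type P8 and 58.3, 31.1 and 32.9 in Kir2.1 P8. Replicate 1 was the high library of Kir2.1 P8, and no pair of groups separated. The receptor is also made by oligodendrocyte precursors of the optic nerve. Of 10 genes of the oligodendrocyte lineage, the defining genes Olig1 and Sox10 did not exceed 0.626 and 0.325 CPM in any library, and Mog had 1 count in all libraries together, while Mbp, which is read in other cells too, reached 36.7 CPM. The summed level of the 10 genes ranged from 55.5 to 96.1 CPM.

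Pdgfa (ENSMUSG00000025856; chromosome 5, 138976014 to 138997370, minus strand) codes for the PDGF-A chain. It was at 10.2 and 11.3 CPM in wild-type P4 and at 6.98, 4.30 and 8.14 CPM in Kir2.1 P4. At P8 it was 2.75, 6.29 and 9.60 CPM in wild type and 11.5, 8.66 and 7.77 CPM in Kir2.1. The genotypes did not overlap at P4, where wild type was higher (10.75 ± 0.821, SD, n = 2, against 6.47 ± 1.97 CPM, n = 3), and they overlapped at P8 (6.21 ± 3.43 against 9.31 ± 1.96 CPM, n = 3 each). Wild-type P8 replicate 1, one of the libraries that stood apart, held the lowest value. Pdgfa shares 813 exon bases with an antisense gene, 6330403L08Rik, which had 721 counts in all libraries together. The strand setting of the counting is not given in the sources used here, so reads of this pair may not have been told apart. The summed level of 10 ganglion cell markers at P4 was 1067 and 1517 CPM in wild type and 302.3 to 805.1 CPM in Kir2.1, with all 10 detected in each group. All 10 had a negative log2 difference, 8 with an unadjusted edgeR p under 0.05 and 0 past the adjusted test (smallest adjusted p = 0.583). At P8 the same sums were 415.1 to 535.9 and 419.4 to 501.8 CPM. Their part in the Pdgfa values was not tested. In bulk retina, fewer cells of a type and less RNA per cell cannot be told apart.

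Vegfa (ENSMUSG00000023951; chromosome 17, 46016993 to 46032369, minus strand) had 2304 to 3956 counts per library. Its level was 255 and 219 CPM in wild-type P4 and 299, 279.6 and 202 CPM in Kir2.1 P4. It was 284, 264 and 322 CPM in wild-type P8 and 255, 291 and 212 CPM in Kir2.1 P8. The wild-type P8 libraries were all above the wild-type P4 libraries, and the Kir2.1 libraries of both ages covered the same range. Group means were 237.1 ± 25.1 (SD, n = 2), 260.1 ± 51.7 (n = 3), 289.9 ± 29.3 (n = 3) and 252.9 ± 39.6 CPM (n = 3). For each of the 7 genes, groups that were neighbours in the order of their means overlapped.

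**Figure D2:**
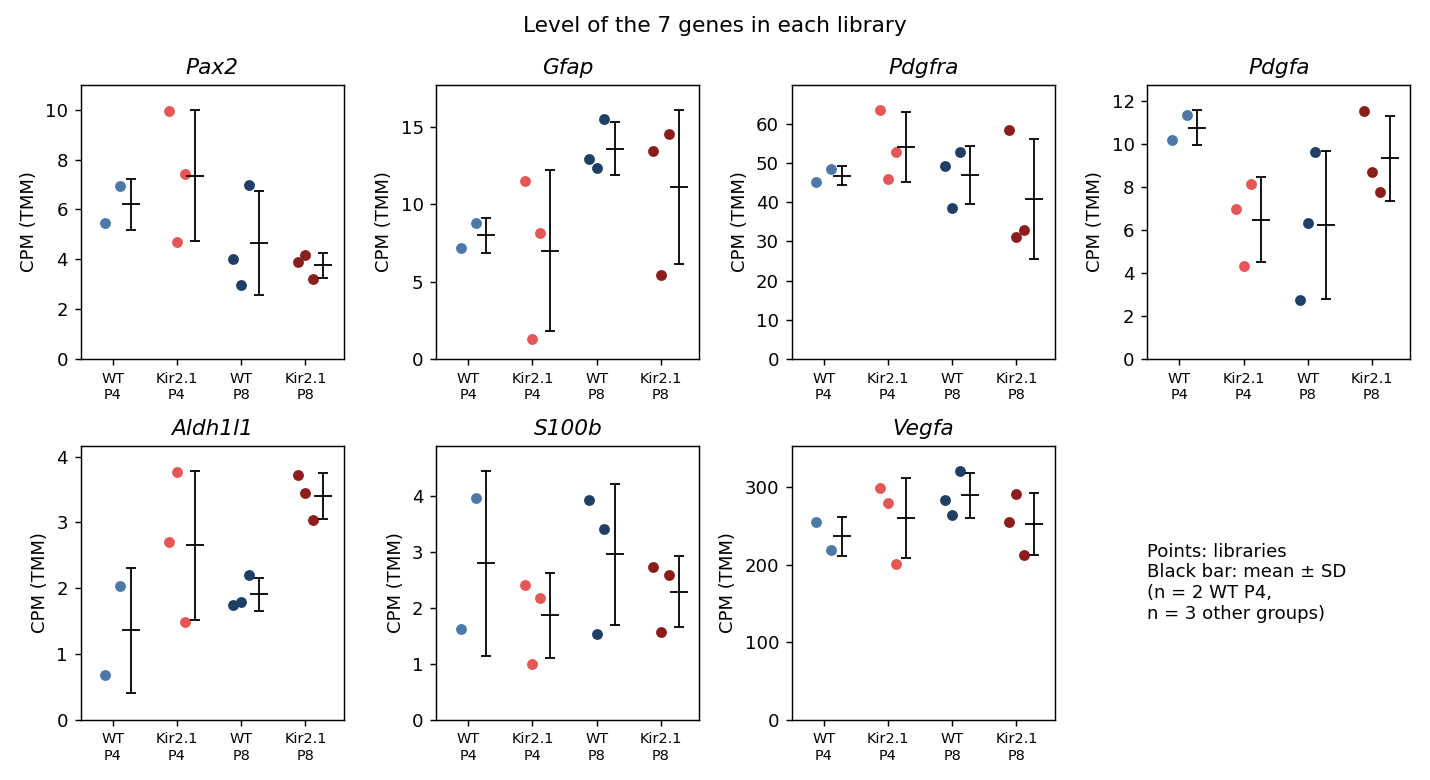
Level of each of the 7 genes in TMM-scaled CPM (y axis, from 0), with 1 point per library in 4 groups by genotype and age, and the mean ± SD in black. Vegfa stays between 202 and 322 CPM, Gfap drops to 1.31 CPM in a single Kir2.1 P4 library, and Pdgfa separates the genotypes at P4 only.

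Whether the Kir2.1 genotype went with a change in these genes was asked at each age. None of the 7 passed an adjusted p of 0.05 at P4 or at P8 with edgeR, DESeq2 or limma voom, and none of the 7 had an unadjusted edgeR p under 0.05. Among all 18188 genes tested, edgeR called 0% at either age by adjusted p, and 7.22% at P4 and 6.82% at P8 by unadjusted p. DESeq2 called 33 genes at P4 and 3 at P8, and voom none. The edgeR count was 6 at P4 on leaving out wild-type P4 replicate 1 and 219 at P8 on leaving out wild-type P8 replicate 3, and with no filter on low counts it was 339 at P4 and 447 at P8 (0.928% and 1.22% of 36534 genes), none of them 1 of the 7. At P4 the fitted log2 difference for Pdgfa was -0.74 ± 0.43 (SE; 95% interval -1.66 to 0.19; adjusted p = 0.727), with all 3 Kir2.1 libraries lower than both wild-type libraries. An exact permutation test of its CPM gave p = 0.1, two-sided, which is the smallest p that any pair of these groups allows. It was 1 of the 7 genes whose genotypes did not overlap at P4, against 26.7% of all genes tested. For Aldh1l1 the log2 differences were 0.96 ± 0.54 at P4 (adjusted p = 0.719) and 0.83 ± 0.46 at P8 (95% interval -0.17 to 1.83; adjusted p = 0.699; exact permutation p = 0.1). The P4 value was 0.38 on leaving out replicate 1 of wild-type P4, 1.94 on leaving out its replicate 2, and 0.63 on leaving out Kir2.1 P4 replicate 2. It was the 1 gene of the 7 without overlap at P8, against 10.6% of all genes.

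For Vegfa the intervals were the narrowest. The log2 difference of Kir2.1 from wild type was 0.13 ± 0.18 at P4 (95% interval -0.26 to 0.53) and -0.20 ± 0.16 at P8 (-0.55 to 0.15). Pdgfra gave 0.21 ± 0.25 (-0.35 to 0.76) at P4 and -0.20 ± 0.23 (-0.69 to 0.30) at P8. Leaving out 1 library also moved these small values, with no change of sign. Vegfa ran from 0.03 (Kir2.1 P4 replicate 1) to 0.29 (replicate 3 of that group) at P4, with 0.03 also on leaving out wild-type P4 replicate 2, and from -0.31 (Kir2.1 P8 replicate 2) to -0.085 (replicate 3) at P8. Pdgfra ran from 0.081 (Kir2.1 P4 replicate 1) to 0.32 (replicate 2) at P4. At P8 it ran from -0.55 (Kir2.1 P8 replicate 1) to -0.037 (replicate 2), with -0.065 on leaving out replicate 3. Intervals were wide for Gfap, from -1.56 to 1.15 at P4 and from -1.47 to 0.90 at P8, and for S100b, from -1.83 to 0.65 and from -1.47 to 0.75. Those of Pax2 ran from -0.64 to 1.119 and from -1.12 to 0.49. Leaving out 1 library turned the sign for Pax2 (Kir2.1 P4 replicate 1, -0.029, and wild-type P8 replicate 3, 0.10), for Gfap (replicate 2 of Kir2.1, 0.31 at P4 and 0.04 at P8) and for S100b (wild-type P4 replicate 2, 0.20). The median log2 difference of the 7 was 0.13 at P4 and -0.20 at P8, beside 0.01 and 0.00 over all genes.

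In the authors' deposited tables of the same comparisons, 2.27% of genes with an adjusted p were called at P4 and 7.27% at P8, and none of the 7 was among them. Pdgfa had a log2 fold change of -1.17 at P4 (adjusted p = 0.166) and 1.03 at P8 (adjusted p = 0.176) in the authors' deposited tables. Aldh1l1 had -0.06 at P4 and 1.03 at P8 in the authors' deposited tables, with no adjusted p for Aldh1l1 or S100b at either age. Over the alternative settings used here the P4 difference ran from 0.381 to 1.941 for Aldh1l1 and from -0.935 to -0.499 for Pdgfa. Both deposited P4 values lay outside these ranges. The P8 range was 0.758 to 0.944 for Aldh1l1, with the deposited value outside it, and 0.227 to 1.039 for Pdgfa, with the deposited value inside it. The cause of these differences was not tested.

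The effects at the 2 ages were then set against each other. Pdgfa had the only unadjusted p under 0.05 among the 7: its log2 difference of Kir2.1 from wild type was 1.32 ± 0.58 larger at P8 than at P4 (95% interval 0.06 to 2.57; edgeR unadjusted p = 0.041, adjusted p = 1). The wild-type mean was higher than the Kir2.1 mean at P4, and lower at P8. Among all genes, 3.09% had an unadjusted p under 0.05 in this test and 0% passed after adjustment (0.372%, or 136 genes, with no filter on low counts, and 1 gene on leaving out wild-type P4 replicate 1). The difference of the Pdgfa effects ran from 0.96 to 1.77 when 1 library was left out, and was 0.88 without both libraries that stood apart from the other wild types. Its unadjusted p was no longer under 0.05 in that last fit, nor on leaving out any single wild-type P4 library, replicate 1 or 2 of Kir2.1 P4 or of wild-type P8, or replicate 2 of Kir2.1 P8. The other 6 genes had adjusted p = 1 as well, with differences from -0.56 ± 0.55 for Pax2 to 0.23 ± 0.76 for S100b.

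**Figure D3:**
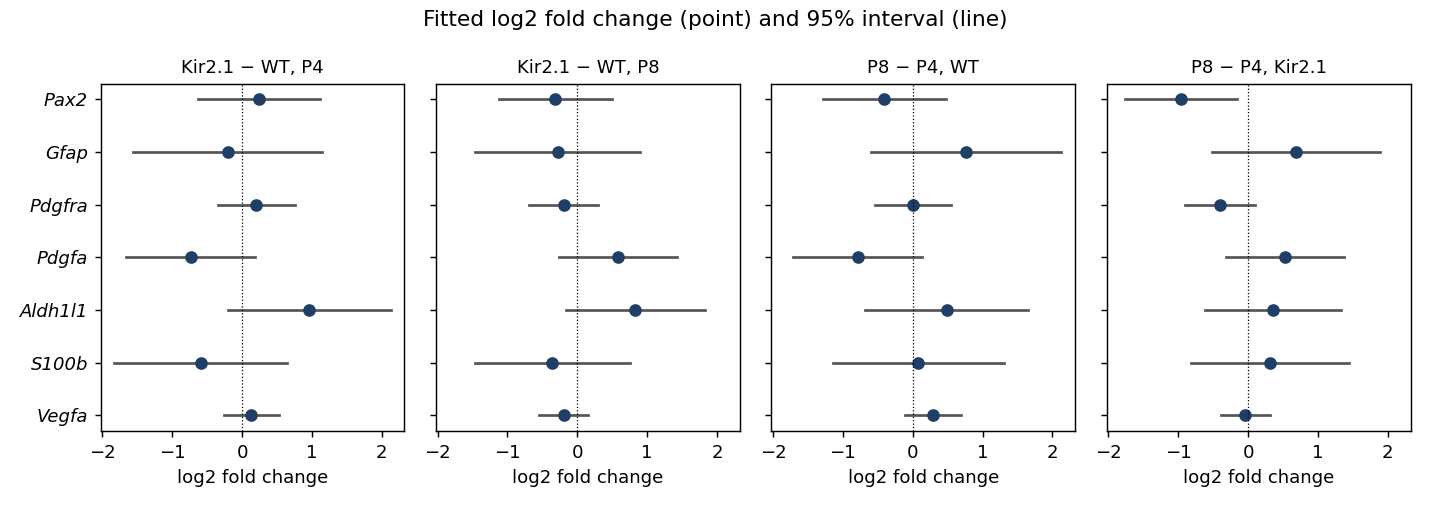
Fitted log2 fold changes (points) and 95% intervals (lines) of the 7 genes, with the genotype difference at each age on the left and P8 against P4 in each genotype on the right. The interval of Pax2 in Kir2.1 mice between P4 and P8 (-1.77 to -0.16) is the only 1 of the 28 that leaves out 0, and its adjusted p is 0.0981. On leaving out Kir2.1 P4 replicate 1 or the third Kir2.1 library of P8, 0 of the 7 genes had an unadjusted p under 0.05 in that comparison.

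With age, none of the 7 genes passed an adjusted p of 0.05 in edgeR. The share of all genes that passed was 4.39% in wild type, 16.7% in Kir2.1 and 22.8% over both genotypes together, and by unadjusted p it was 19.6%, 29.7% and 35%. The smallest p among the 7 was that of Pdgfa in wild type (edgeR unadjusted p = 0.0889), and that of Pax2 in Kir2.1 and averaged over genotypes. The log2 level of Pax2 at P8 differed from P4 by -0.41 ± 0.40 in wild type (adjusted p = 0.647). The difference was -0.96 ± 0.37 in Kir2.1 (edgeR unadjusted p = 0.0224, adjusted p = 0.0981) and -0.69 ± 0.27 averaged over genotypes (unadjusted p = 0.0268, adjusted p = 0.0926). The wild-type value was -0.82 on leaving out wild-type P8 replicate 3, -0.17 on leaving out replicate 2 of that group, -0.22 on leaving out wild-type P4 replicate 2 and -0.15 without both libraries that stood apart, and -0.80 by voom. Without wild-type P8 replicate 3, the wild-type P8 library with the most Pax2, the averaged difference was -0.89 with adjusted p = 0.0251, and limma voom gave -0.87 with adjusted p = 0.0281. Leaving out any other single library gave no call: the difference ran from -0.57 to -0.81, with adjusted p from 0.0525 to 0.229, and on leaving out the second wild-type or the third Kir2.1 library of P8 the unadjusted p was not under 0.05 either. Pax2 was also the 1 gene of the 7 whose ages did not overlap in Kir2.1, against 38.1% of all genes.

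Gfap differed the other way, by 0.73 ± 0.42 averaged over genotypes (95% interval -0.18 to 1.64; adjusted p = 0.244). The fitted difference was 0.77 ± 0.62 in wild type (adjusted p = 0.562; exact permutation p = 0.1) and 0.69 ± 0.56 in Kir2.1 (adjusted p = 0.462). The Kir2.1 value was 0.18 on leaving out Kir2.1 P4 replicate 2, its lowest library, 1.23 on leaving out replicate 1 of that group, and 0.45 on leaving out the third Kir2.1 library of P8. With no filter on low counts, the averaged difference of Gfap had an adjusted p of 0.0107, and on leaving out Kir2.1 P4 replicate 2 the difference was 0.48. Gfap, Pdgfa and Vegfa were the 3 genes whose wild-type libraries did not overlap between ages, against 31.1% of all genes. Pdgfa differed by -0.79 ± 0.43 in wild type (adjusted p = 0.348) and by 0.53 ± 0.39 in Kir2.1 (adjusted p = 0.408). The wild-type value was -0.45 on leaving out wild-type P8 replicate 1, -1.24 on leaving out replicate 3 of that group, and -0.38 on leaving out both libraries that stood apart. The Kir2.1 value was 0.30 on leaving out Kir2.1 P4 replicate 2 and 0.35 on leaving out the first Kir2.1 library of P8. Vegfa differed by 0.29 ± 0.18 in wild type (95% interval -0.11 to 0.68; 0.19 on leaving out wild-type P4 replicate 2) and by -0.04 ± 0.16 in Kir2.1 (-0.39 to 0.31). Pdgfra differed by 0.00 ± 0.25 in wild type and by -0.40 ± 0.23 in Kir2.1 (adjusted p = 0.268). Without Kir2.1 P8 replicate 1, its highest library there, the Kir2.1 difference of Pdgfra was -0.75 with adjusted p = 0.0241, and it was -0.24 on leaving out replicate 2 of that group. Aldh1l1 and S100b differed by 0.42 ± 0.35 and 0.20 ± 0.38 averaged over genotypes (adjusted p = 0.431 and 0.766). For Aldh1l1 this was 0.13 on leaving out replicate 1 of wild-type P4, 0.91 on leaving out its replicate 2 and 0.28 on leaving out Kir2.1 P4 replicate 3. For S100b it was -0.059 and 0.59 on leaving out those same wild-type libraries in turn. The median log2 difference of the 7 between ages was 0.12, beside 0.02 over all genes.

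Other genes of these pathways were followed in 5 lists. None of their genes passed an adjusted p of 0.05 between genotypes at either age, or in the difference between ages, by edgeR, DESeq2 or voom. Of the 12 to 23 tested genes of each list, 1 or 2 had an unadjusted edgeR p under 0.05 at each age. The share of all genes was 7.22% at P4 and 6.82% at P8. In the difference it was 0 or 1 per list, beside 3.09% of all genes. On leaving out wild-type P8 replicate 3, which called 1.21% of all genes at P8, 2 genes of the lists were called there. These were Nrp2, a VEGF coreceptor gene (-0.99; adjusted p = 0.0489), and Ndrg1 (1.37; adjusted p = 0.0322). With no filter on low counts edgeR called 6 of them at P4, 5 at P8 and 2 in the difference, beside 0.928%, 1.22% and 0.372% of all genes. At P4 the vessel receptor genes Tek (-1.76), Tie1 (-1.53) and Aplnr (-1.74) and Igf1 (-1.12) were lower in Kir2.1, and Notch1 (0.57) and the kinase subunit gene Pik3r1 (0.60) were higher. At P8 Nrp2 (-0.71) was lower, and Ndrg1 (0.77), Slc1a2 (0.53), Lifr (0.60) and Pik3r1 (0.55) were higher. In the difference these were Nrp2 (-0.85) and Tie1 (2.15). These genes are outside the rule for named genes and were chosen after their values were seen. All 10 endothelial markers had a negative log2 difference at P4 (median -1.15; 1 with an unadjusted p under 0.05, 0 past the adjusted test) and a positive one at P8 (median 0.35). Their part in the values of Tek, Tie1 and Aplnr was not tested.

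With age, 13 of 21 tested genes of the list of other astrocyte genes passed, 4 higher and 9 lower at P8, averaged over genotypes, beside 22.8% of all genes. Nr2e1 fell from 48.7 ± 15.9 (SD, n = 2) to 12.03 ± 3.77 CPM (n = 3) in wild type and from 64.95 ± 15.3 to 15.6 ± 1.95 CPM (n = 3 each) in Kir2.1, a log2 change of -2.04 ± 0.19 (adjusted p = 2.12e-05). Nes, an intermediate filament gene of progenitors and immature glia, fell by 2.01, and the receptor gene Notch1 by 1.64. These 3 are also progenitor genes, and 8 markers of dividing cells fell with them, from summed levels of 892 to 2541 CPM in the P4 libraries to 95.2 to 136.8 CPM in the P8 libraries. Their part in the change was not tested. The water channel gene Aqp4 rose by 1.99 ± 0.49, from at most 1.52 CPM in every P4 library to between 1.87 and 5.30 CPM at P8 (adjusted p = 0.0122, or 0.0572 without wild-type P4 replicate 1). Among P8 libraries Aqp4 was highest in Kir2.1 replicate 1 (5.30 CPM) and wild-type replicate 3 (4.15 CPM). Those libraries also had the largest P8 sums of 11 Mueller glia markers (1934 and 1807 CPM, the rest 1002 to 1472). At P4 such sums lay between 1278 and 1848 CPM, overlapping P8. With age 2 of these markers were called higher and 4 lower, averaged over genotypes. The part of Mueller glia in the Aqp4 rise was not tested. The glycolytic gene Aldoc rose by 1.42 and the glutamate transporter gene Slc1a2 by 1.05. In wild-type P8 replicates 1, 2 and 3 Aldoc was 22.3, 28.8 and 40.3 CPM and Slc1a2 238, 469 and 600.4 CPM, beside summed rod markers of 587.5, 2384 and 5561 CPM and bipolar cell markers of 377.8, 729 and 1219 CPM. With age all 8 rod and all 7 bipolar markers were called higher, averaged over genotypes. Their part in these rises was not tested. The list's median log2 change was -0.41. In single genotypes, 3 of its genes passed in wild type, all lower, and 13 in Kir2.1, beside 4.39% and 16.7% of all genes. Leaving out wild-type P4 replicate 1 left 1 call in wild type, leaving out replicate 2 of that group gave 9, and leaving out replicate 1 or 3 of wild-type P8 gave 6.

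Of 13 PDGF ligands, receptors and effectors, 1 was higher and 3 lower at P8, beside 22.8% of all genes. The ligand gene Pdgfd rose by 0.70 ± 0.21 (adjusted p = 0.0293), and the effector genes Grb2, Sos1 and Plcg1 fell by 0.31, 0.24 and 0.22. These calls were fragile, since leaving out 1 library left 0 to 3 of 4 calls. No more than 2 were left without any 1 of the libraries other than wild-type P8 replicate 1, and none on leaving out wild-type P4 replicate 1 or the first replicate of Kir2.1 P8. The other ligand and receptor genes Pdgfb (-0.22 ± 0.34) and Pdgfrb (0.40 ± 0.32) had adjusted p = 0.699 and 0.413. In wild type alone no gene of the list passed, beside 4.39% of all genes. In Kir2.1 alone Sos1 and Plcg1 passed, at -0.40 and -0.37 (adjusted p = 0.0222 and 0.0243), beside 16.7% of all genes. Both calls were lost on leaving out any single Kir2.1 P4 library or Kir2.1 P8 replicate 2, that of Plcg1 also on leaving out Kir2.1 P8 replicate 1 and that of Sos1 on leaving out Kir2.1 P8 replicate 3.

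The VEGF list changed in both directions, with 2 of 17 tested genes higher and 6 lower at P8, beside 22.8% of all genes in either direction. Angpt2, a vessel-destabilising ligand gene, fell by 1.84 ± 0.43 (adjusted p = 0.00844). Kdr fell by 0.70 ± 0.15 (adjusted p = 0.00557), from 438.2 ± 100.2 (SD, n = 2) to 318.3 ± 50.7 CPM (n = 3) in wild type and from 559.7 ± 144.8 to 292.5 ± 50.7 CPM (n = 3 each) in Kir2.1. Nrp1 fell by 0.82 ± 0.14 (adjusted p = 0.0013). Vegfc, the lymphatic growth factor gene, rose by 1.49 ± 0.38 (adjusted p = 0.0148, or 0.0871 without wild-type P4 replicate 1). Flt1, the VEGF-A decoy receptor gene of endothelium, rose by 1.004 ± 0.33 (adjusted p = 0.0429). This call was lost, with adjusted p up to 0.196, without any 1 of wild-type P4 replicate 1, Kir2.1 P4 replicates 2 and 3, wild-type P8 replicates 1 and 2 and Kir2.1 P8 replicate 1. The ligand genes Pgf (-1.30) and Angpt1 (-1.26) had adjusted p = 0.0337 and 0.0373, and each lost its call without any 1 of 7 libraries, with adjusted p up to 0.11 and 0.235. For both these included wild-type P4 replicate 1, Kir2.1 P4 replicate 2, wild-type P8 replicate 1 and Kir2.1 P8 replicate 1. For Pgf they also were wild-type P4 replicate 2, wild-type P8 replicate 3 and Kir2.1 P8 replicate 3, and for Angpt1 Kir2.1 P4 replicate 1, wild-type P8 replicate 2 and Kir2.1 P8 replicate 2. The count of 8 fell to 3 on leaving out wild-type P4 replicate 1, to 4 on leaving out Kir2.1 P4 replicate 2, and to 5 on leaving out the first replicate of either P8 group or replicate 2 of wild-type P8. Summed endothelial markers were 67.4 and 84.8 CPM in wild-type P4, 12.5 to 72.9 in Kir2.1 P4, 39.5 to 131.6 in wild-type P8 and 49.05 to 207.6 in Kir2.1 P8. All 10 of these markers had a positive log2 change with age, 1 of them past the test. Their part in the Flt1 and Kdr values was not tested. Summed markers of dividing cells were 892 to 2541 CPM in the P4 libraries and 95.2 to 136.8 CPM in the P8 libraries. The part of dividing cells in the fall of Kdr was not tested either.

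Of 23 tested hypoxia genes, 5 were higher at P8 and none lower, a share near the 22.8% of all genes that passed. They were the stress-response gene Ndrg1 (log2 change 1.202 ± 0.26), the ankyrin gene Ankrd37 (0.81 ± 0.17), the glycolytic enzyme genes Aldoa (0.67 ± 0.08) and Ldha (0.63 ± 0.15), and Hif1a (0.53 ± 0.08; adjusted p = 0.000613). Hif1a went from 465.6 ± 48.1 to 657.7 ± 76.0 CPM in wild type and from 488.9 ± 27.4 to 725.7 ± 11.1 CPM in Kir2.1. Rod photoreceptor markers rose with age too: all 8 were called higher, and their sum was 168.5 to 939.6 CPM in the P4 libraries and 587.5 to 5561 CPM in the P8 libraries. In wild-type P8 replicates 1, 2 and 3 the rod sums were 587.5, 2384 and 5561 CPM, beside 170.8, 326.8 and 629.7 CPM for Ndrg1 and 179.9, 244.5 and 345.4 CPM for Ldha. The part of the rod markers in these changes was not tested. Epas1 (-0.12 ± 0.19) and Slc2a1 (-0.48 ± 0.19) had adjusted p = 0.712 and 0.0871, and the list's median was -0.11. Among 12 tested genes of other vessel signals, 1 was higher and 4 were lower, beside 22.8% of all genes. Tgfb2, a transforming growth factor gene, rose by 1.25 ± 0.13 and the Wnt ligand gene Wnt7b fell by 4.39 ± 0.61, from between 2.20 and 5.51 CPM in the P4 libraries to at most 0.458 CPM at P8. Lrp5, a Wnt and norrin coreceptor gene, fell by 0.95, and the chemokine gene Cxcl12 by 0.79. The growth factor gene Igf1 fell by 1.17 (adjusted p = 0.0149, or 0.126 without wild-type P4 replicate 1). Of 8 microglia markers, all had a negative log2 change with age and 6 passed the test, and their sum was 182.6 to 388.9 CPM in the P4 libraries and 85.8 to 286.1 CPM in the P8 libraries. Their part in the Igf1 change was not tested.

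Within single genotypes, where 4.39% (wild type) and 16.7% (Kir2.1) of all genes passed, many counts moved when 1 library was left out. In the VEGF list Nrp1 was lower in wild type. That count of 1 became 0 on leaving out wild-type P4 replicate 1 or wild-type P8 replicate 2 or 3, and 2 on leaving out Kir2.1 P4 replicate 2 or replicate 1 of wild-type P8. In Kir2.1, Vegfc and Flt1 were higher and Kdr and Nrp1 lower. That count of 4 became 1 on leaving out Kir2.1 P8 replicate 3, and 8 on leaving out wild-type P8 replicate 3. It became 2 on leaving out Kir2.1 P4 replicate 2 or 3 or the second replicate of either P8 group. Single leave-outs lost the call of Vegfc for 7 of the 11 libraries, every Kir2.1 library included. They lost that of Flt1 for 5 and that of Nrp1 for 4, and never that of Kdr. In the hypoxia list Aldoa and Hif1a were higher in wild type, and leaving out any 1 of the 11 libraries moved this count, to between 0 and 4. In Kir2.1 5 hypoxia genes were higher. This became 2 on leaving out Kir2.1 P4 replicate 1, and 3 on leaving out replicate 3 of that group or Kir2.1 P8 replicate 1. Among the other vessel signals, Tgfb2 was higher and Wnt7b lower in wild type. Their count became 0, 4 and 1 on leaving out wild-type P4 replicate 1, wild-type P4 replicate 2 and wild-type P8 replicate 2. In Kir2.1 Tgfb2 was higher and Wnt7b, Lrp5 and Cxcl12 were lower. Cxcl12 alone of these 4 was not called on leaving out any 1 of 5 libraries, namely all Kir2.1 P4 libraries and Kir2.1 P8 replicates 2 and 3.

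**Figure D4:**
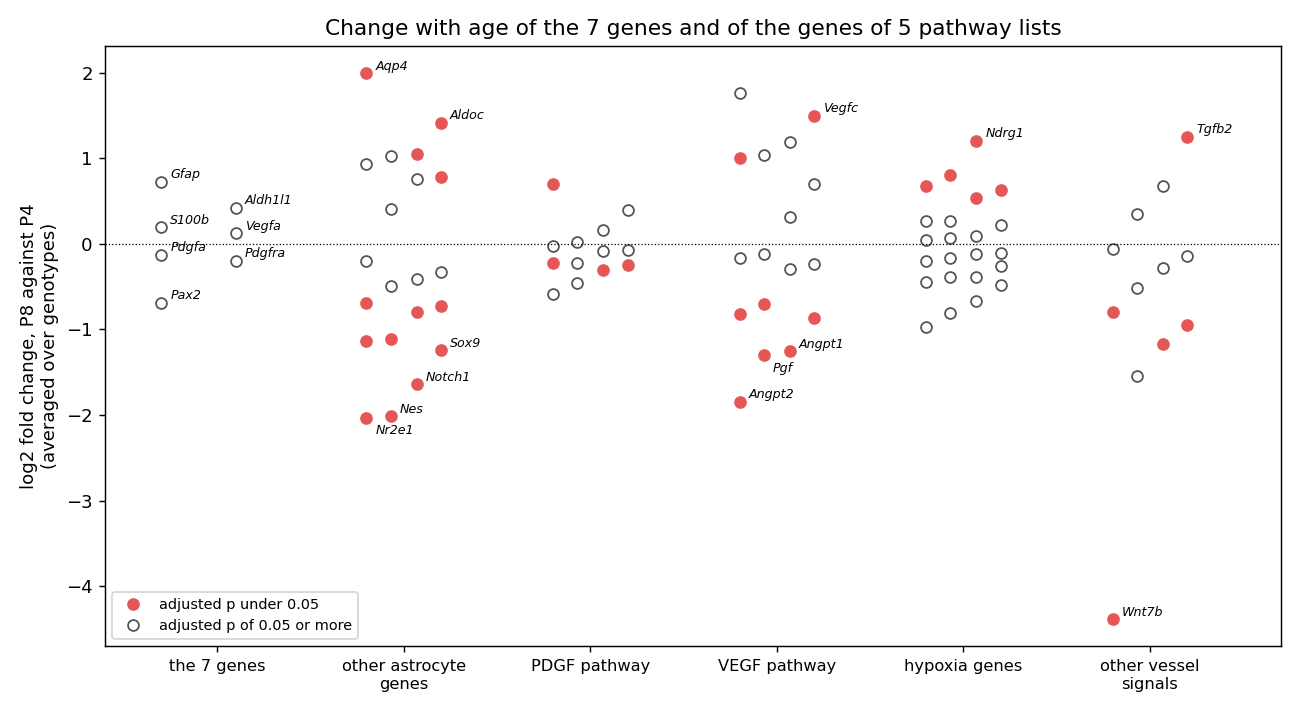
log2 fold change of P8 against P4, averaged over genotypes, for the 7 genes and for the tested genes of 5 pathway lists; each point is a gene, filled where its adjusted p is under 0.05. The 7 genes lie between -0.69 (Pax2) and 0.73 (Gfap) with no filled point, while Nr2e1, Nes and Wnt7b lie at -2.01 or below.

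The genes whose log2 CPM ran most like each of the 7 over the 11 libraries were listed as a description. Libraries share depth, age and genotype effects, and each of the 3 is the top of about 12199 candidate genes. Pax2 ran most like Gpc4, Rel and Pacsin3 (Pearson r = 0.88, 0.88 and 0.87), and Gfap most like Zswim3, Zcchc17 and Ccdc71 (0.92, 0.89 and 0.89). Pdgfra ran most like the growth factor gene Igf2 (0.84), Selenop (0.82) and Lrfn3 (0.81), and Pdgfa most like Rnf31, Tapbp and Spns1 (0.89, 0.86 and 0.85). Aldh1l1 ran most like Asxl2, E4f1 and Pan2 (0.90, 0.89 and 0.89), and S100b most like Mical2, Gtpbp6 and Las1l (0.87, 0.85 and 0.85). Vegfa ran most like Mrps33, Josd2 and Neil1 (0.90, 0.90 and 0.89). None of the 7 was among the 3 genes nearest to another of them, but Aldh1l1 and S100b, with means under 5 CPM, were not candidates.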

How the data were processed

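Counts per Ensembl gene were deposited by the authors as 1 table per library, and their processing used cutadapt 1.18, STAR 2.5.0c, SAMtools 1.9, bedtools 2.26.0, HTSeq 0.6.1 and DESeq2 with mm10, per the submitters' processing notes. The annotation and strand setting are not given in the sources used here. Lines that name no gene held 74.6% to 79.8% of records and were left out. The authors' deposited comparison tables hold, per the file headers, a mean normalized signal, a log2 fold change with its error, a test score and a p-value with its adjusted form.

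Counts were fitted in R 4.3.3 with edgeR 4.0.16 (quasi-likelihood, TMM scaling, filterByExpr, 4 group means over 11 libraries). Adjusted p-values are Benjamini-Hochberg over 18188 genes, with a threshold of 0.05, and intervals are at 95%. The fit was also run on simulated counts, as a check of the code only. CPM were divided by exon length in GENCODE M21 (GRCm38) for levels. Alternatives were DESeq2 1.42.0, voom of limma 3.58.1, other filters and scalings, a replicate block, and each library left out. The members and lists were chosen with earlier results of these data known. From each list, comparison and direction the text names up to 3 called genes, those of largest change whose mean reached 1 CPM, plus 9 related genes in any case. Ldha and Cxcl12 came by this rule in Kir2.1 alone, and are given averaged over genotypes as well. The genes most like each of the 7 were the 3 with the highest Pearson r among genes with a mean of at least 5 CPM (log2 CPM, prior count 2).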

Additional observations from a re-analysis of the deposited data

How the results depend on the processing

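For the 7 genes, 779 of 826 values under other settings kept direction and side of the threshold, 43 changed sign and 4 newly passed. The count of genes called was 0 in every comparison and setting but these: averaged over genotypes, P8 against P4 gave 1 with voom (Pax2), 1 with no filter on low counts (Gfap) and 0 to 1 with 1 library left out, and in Kir2.1 it gave 0 to 1 with 1 library left out. The replicate numbers were not taken to pair the libraries, since the labels give no shared source and 3 of 15 same-numbered pairs had deviations correlated above 0.1 (-0.076 to 0.139), although 7 of 11 libraries correlated best with their own number. With the replicate block the count stayed 0, and the Gfap difference between effects became 0.24, and the wild-type age changes of Pdgfra and S100b -0.008 and -0.22. In the lists the block left 1 of 4 calls of the averaged PDGF list (Pdgfd, Sos1 and Plcg1 had adjusted p = 0.0552, 0.0717 and 0.0783), and Angpt1 had 0.0733. Within genotypes it took the VEGF count in Kir2.1 from 4 to 7 and the hypoxia count in wild type from 2 to 1 (Hif1a 0.0826), and Aqp4 and Vegfc in Kir2.1 had 0.0559 and 0.0697. With no filter on low counts calls were lost averaged over genotypes for Grb2, Sos1, Plcg1 and Pgf (adjusted p = 0.115, 0.154, 0.162 and 0.0819), and in Kir2.1 for Sos1, Plcg1 and Cxcl12 (0.0679, 0.0662 and 0.0755), and voom gave Angpt1 averaged over genotypes 0.051.

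Signs also changed under these settings, and the cause was not tested. With voom the P8 genotype differences of Pax2 and S100b were 0.06 and 0.22, the Gfap difference between effects 0.42, and the wild-type age changes of Pdgfra and S100b -0.16 and -0.34. The wild-type age change of Pdgfra was -0.002 with a minimum mean of 1 CPM and -0.011 fitted on the groups compared. Without both libraries that stood apart, a setting chosen after seeing the data, S100b gave 0.19 at P4 and -0.30 between effects, Pdgfra -0.001 with age in wild type, and Pdgfa 0.064 with age on average. With 1 library left out, the P4 genotype difference ran from -1.10 to 0.20 for S100b, -0.029 to 0.50 for Pax2 and -0.76 to 0.31 for Gfap, and the P8 difference from -0.56 to 0.10 for Pax2 and -0.52 to 0.04 for Gfap. The difference between effects ran from -0.59 to 0.48 for Gfap, -1.11 to 0.45 for Aldh1l1 and -0.56 to 0.74 for S100b. The wild-type age change ran from -0.093 to 0.13 for Pdgfra, -0.091 to 1.47 for Aldh1l1 and -0.43 to 0.87 for S100b. The Kir2.1 age change ran from -0.20 to 0.07 for Vegfa and -0.001 to 0.52 for S100b, and the averaged age change from -0.059 to 0.59 for S100b and -0.36 to 0.027 for Pdgfa. Low counts, 8 to 49 per library, limit Aldh1l1 and S100b.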
